A study of Mus musculus with 7 samples.

Results

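The CpG methylation of untreated dermal fibroblasts was set against the expression of the same cell type gene by gene. The members were the autosomal genes that the untreated expression table listed under 1 symbol at 1 locus, 21960 of its 23699 entries. For each gene the methylation percent was averaged over the CpG cytosines within 500 bp of each end of its locus, and over the locus without its outer 2 kb, called the body here. Genes were then divided by FPKM, the sequenced fragments normalised to transcript length and library size, into 5 classes: 0 to 0.1, 0.1 to 1, 1 to 5, 5 to 20 and over 20. A locus end at 10% or less was called unmethylated and an end at 75% or more methylated.

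The cells were primary dermal fibroblasts of female FVB/N mice, grown for 8 days in serum-containing medium. They were untreated or exposed for 3 h to thapsigargin, which disturbs protein folding in the endoplasmic reticulum, and the series comprised 7 libraries. The comparison used the RNA library of untreated cells and the percentages pooled by the authors from 2 bisulfite libraries of the same cell type, whose labels mention no thapsigargin. No genotype other than the strain and no age is given, and nothing says how many mice supplied the cells or whether RNA and DNA came from the same culture. With 1 RNA library and pooled methylation there were no replicates, so no test was made, and every spread and interval below is over genes.

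Most cytosines followed by guanine in mammalian DNA carry a methyl group, which DNA methyltransferases copy to the new strand after replication. Stretches dense in CpGs, the CpG islands, lie at many gene starts and are mostly free of methylation, whatever the activity of the gene. Methylation of an island at a start goes with stable silence, as on the inactive X chromosome and at imprinted and germline genes, whereas the bodies of transcribed genes are usually methylated.

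Sequences upstream of 4 genes show how much the substrate of methylation differs between gene starts. Each line gives the 200 bases just upstream of the annotated locus on the gene's own strand, read from the mm9 reference, with every CpG in capitals and no exon overlapping it. They stand for a silent homeobox gene (Tlx3), an expressed gene with both ends methylated (Mmp3), a silent liver gene (Alb) and a silent germline gene (Dazl).
Tlx3: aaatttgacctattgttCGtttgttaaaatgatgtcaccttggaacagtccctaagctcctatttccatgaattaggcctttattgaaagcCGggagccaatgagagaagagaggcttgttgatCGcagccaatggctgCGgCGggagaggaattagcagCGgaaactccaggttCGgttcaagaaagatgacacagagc
Mmp3: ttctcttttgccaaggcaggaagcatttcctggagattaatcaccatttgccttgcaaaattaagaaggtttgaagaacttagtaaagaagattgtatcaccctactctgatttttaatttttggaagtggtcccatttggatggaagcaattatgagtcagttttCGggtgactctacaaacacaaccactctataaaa
Alb: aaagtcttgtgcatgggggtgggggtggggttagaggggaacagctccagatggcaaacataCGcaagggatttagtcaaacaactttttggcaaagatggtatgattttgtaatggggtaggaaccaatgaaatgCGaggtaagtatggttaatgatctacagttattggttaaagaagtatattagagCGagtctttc
Dazl: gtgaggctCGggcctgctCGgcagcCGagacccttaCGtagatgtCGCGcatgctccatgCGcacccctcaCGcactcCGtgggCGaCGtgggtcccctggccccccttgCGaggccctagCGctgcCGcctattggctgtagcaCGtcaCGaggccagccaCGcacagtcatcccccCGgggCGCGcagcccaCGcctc
Tlx3, a homeobox gene of sensory neurons, had 7 CpGs in this stretch (chr11:33103589-33103788, minus strand) with a mean of 1.71% although the gene was listed at FPKM 0. Mmp3, a secreted protease that degrades matrix, had 1 CpG (chr9:7445622-7445821, plus strand) and an FPKM of 21.7. That CpG stood at a mean of 39.5% over its 2 strands, which differed widely, at 18 and 61%. Alb, the serum albumin gene of liver, had 3 CpGs (chr5:90889715-90889914, plus strand), at a mean of 53.4%. Dazl, an RNA-binding protein of germ cells, had 21 CpGs (chr17:50432925-50433124, minus strand), and their mean was 92.2% with a lowest value of 84%.

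The methylation file covered 92.4% of the autosomal CpGs of the reference, with a mean of 66.5% over autosomal CpG cytosines, but gave no coverage, so no depth can be stated for a percentage. Its precision was read from the cytosines of the 2 strands within the same window. The strand means differed by a median of 1.63 percentage points at the lower-coordinate end of a locus, of 1.67 at the other end and of 0.887 over bodies. In end windows at 75% or more the medians were 3 and 3.09 points, and the 95th percentile was 11.8 at both ends. The authors' bounds on FPKM lay a median of 28.8% of the value away at FPKM 0.1 to 1, 9.26% at 1 to 5 and 2.72% over 20. Of the 18551 genes whose ends could be measured, 43% were over FPKM 5. All 12 fibroblast markers examined stood over that level, from 13.9 for Fap to 6473 for Col1a1. Macrophage markers were present as well, with 12 of 13 over FPKM 5, from 5.18 for Itgam to 880 for Lyz2, while 0 of 7 endothelial markers passed FPKM 1. Expression and methylation are averages over all cells in the dish, in which fewer cells of a type and less RNA per cell cannot be told apart.

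Expressed genes had an unmethylated end and silent genes usually did not. Both ends could be measured for 18551 genes, of which 11962 (64.5%) had at least 1 unmethylated end. That share was 21.8% of 5346 genes at FPKM 0 to 0.1 (Wilson 95% interval over genes 20.8 to 23.0), 52.9% of 2223 at 0.1 to 1 (50.8 to 55.0) and 78.0% of 3006 at 1 to 5 (76.5 to 79.4). It reached 90.5% of 4636 genes at 5 to 20 (89.6 to 91.3) and 92.2% of 3340 over 20 (91.2 to 93.0). The step between the 2 highest classes was thus small against the steps below FPKM 5, where the intervals of neighbouring classes lay far apart.

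The level at the less methylated end separated the classes in the same order. Its median was 53.7% at FPKM 0 to 0.1, with quartiles of 15.1 and 67.6%. It was 7.81% at 0.1 to 1, where the quartiles lay far apart, at 1.37 and 50.2%. It was 1.49% at 1 to 5, 0.492% at 5 to 20 and 0.410% over 20. The more methylated end did the opposite by a smaller amount, with medians of 74.4, 75.9, 79.6, 81.8 and 80.9% from the lowest to the highest class. Across the 18551 genes, Spearman's rank correlation with FPKM was -0.63 for the less methylated and 0.23 for the more methylated end. These correlations describe genes of 1 RNA library and 1 pooled methylome, and neighbouring genes are not independent.

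With the strand taken from GENCODE vM1, the unmethylated end was nearly always the start. Of 17597 genes with a strand, 11677 (66.4%) had an unmethylated start and 321 (1.82%) an unmethylated far end. The share of unmethylated starts was 22.8, 52.4, 78.3, 90.5 and 92.0% from the lowest to the highest class, close to the shares found without strand. The far end was unmethylated in 1.17 to 2.42% of each class, without an order by expression.

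**Figure D1:**
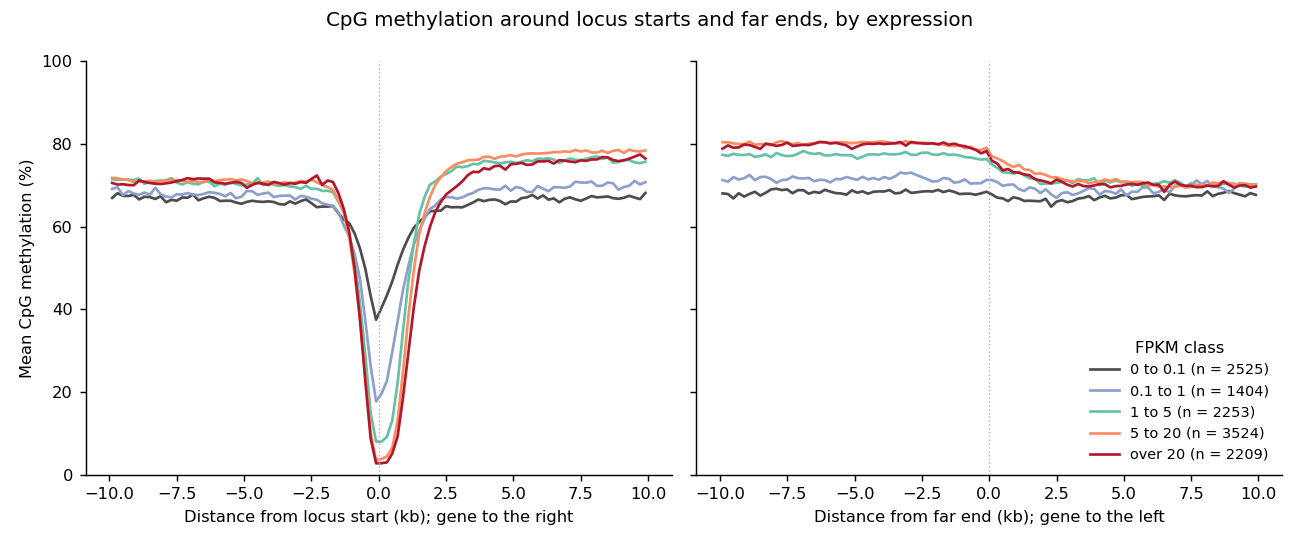
Mean CpG methylation (%) in 200-bp bins from 10 kb outside to 10 kb inside the locus start (left) and the far end (right), for genes with loci of 10 kb or more, 1 line per FPKM class. The lowest bin at the start stood at 37.5% in the class at FPKM 0 to 0.1 and at 2.77% over FPKM 20, and from 10 to 5 kb upstream of the start the lines lie between 66.8 and 71.1%.

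The plot of methylation around locus ends showed where the classes differed. At loci of 10 kb or more the bin next to the start stood at 37.5% at FPKM 0 to 0.1, 17.7% at 0.1 to 1, 8.02% at 1 to 5, 3.56% at 5 to 20 and 2.77% over 20. The region in which the class mean was under 50% was 1200 bp wide in the lowest class and 2600 bp in the highest. Genes over FPKM 20 stood at 46.9% between 1 and 2 kb inside the start, against 60.8% at FPKM 0 to 0.1. These class means mix unmethylated and methylated starts, however. Among genes with an unmethylated start, the region under 50% was 2800 bp wide at FPKM 0 to 0.1 and 2400 bp over FPKM 5. Between 1 and 2 kb inside, these 2 groups stood at 48.8 and 51.3%. Between 5 and 10 kb inside the start expressed genes were the higher ones, with 76.0% over FPKM 20, 78.0% at 5 to 20 and 66.9% at 0 to 0.1. Outside the start, from 10 to 5 kb upstream, the 5 classes differed less but in a like order. They stood at 66.8, 67.9, 70.8, 71.1 and 70.8% from the lowest to the highest class.

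Gene bodies were more methylated in expressed than in silent genes, up to FPKM 20. The body could be measured in 16189 genes, 53.9% of which stood at 75% or more. The median was 69.2% at FPKM 0 to 0.1 (quartiles 63.6 and 73.6), 72.4% at 0.1 to 1, 78.1% at 1 to 5 and 81.3% at 5 to 20 (76.2 and 84.7). It was lower over FPKM 20, at 80.3% (74.5 and 84.2), and lower still in the upper part of that class: 81.2% at FPKM 20 to 50 (n = 1853), 79.2% at 50 to 100 (n = 593), 76.6% at 100 to 500 (n = 344) and 71.8% over 500 (n = 29). The share of bodies at 75% or more followed the same course, with 19, 32.7, 65, 79.3 and 73.3% of the classes. Spearman's correlation of body percent with FPKM was 0.44 among 9079 genes at FPKM 5 or less and -0.18 among 2819 genes over FPKM 20.

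The surroundings of the genes did not show this order. The DNA from 5 to 50 kb outside the loci had medians of 66, 65.9, 66.5, 65 and 64.7% from the lowest to the highest class, and its correlation with FPKM was -0.04 over 16185 genes. The body exceeded these flanks by a median of 2.09 percentage points at FPKM 0 to 0.1 and of 14.8 points at 5 to 20. Ends of neighbouring genes were not removed from the flanks, whereas the gene's own ends were removed from the body. The body was above its own flanks in 60.6% of the lowest class and in 92.0% of the genes at 5 to 20.

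The difference was present in every band of locus length and of flank methylation. At loci of 5 to 20 kb the body median went from 69.2% at FPKM 0 to 0.1 to 81.3% over FPKM 20, at 20 to 60 kb from 69.5 to 80.7%, and over 60 kb from 68.8 to 77.0%. In genes whose flanks were under 60% it went from 66.4 to 80.8%, and in genes whose flanks were at 75% or more from 74.8 to 80.1%. Among genes with an unmethylated start the body median was 68.2% at FPKM 0 to 0.1 (n = 874) and 80.8% over 20 (n = 2541). Among genes with a start over 60% the same medians were 70.8% (n = 1523) and 71.2% (n = 47), with 73.5% (n = 183) at FPKM 1 to 5 and 76.3% (n = 125) at 5 to 20 between them.

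**Figure D2:**
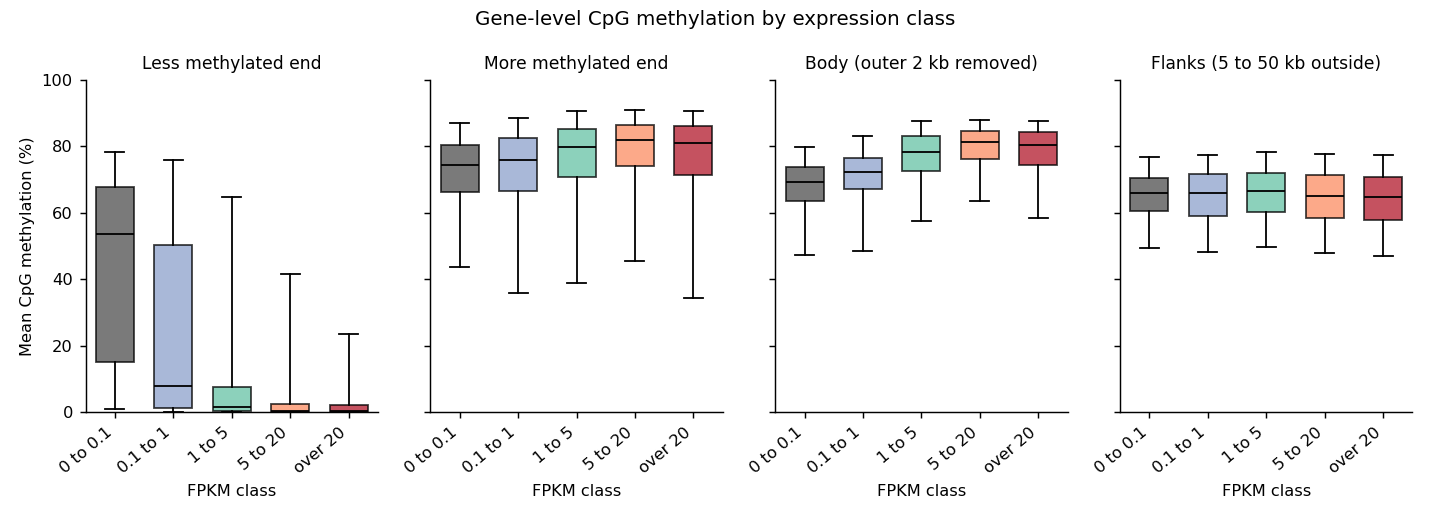
Methylation (%) of the less methylated end, the more methylated end, the body and the flanks of each gene, by FPKM class; boxes give the quartiles and median over genes and whiskers the 5th and 95th percentiles. The medians of the less methylated end go from 53.7% in the lowest class to 0.410% in the highest, those of the body from 69.2% to 81.3% at FPKM 5 to 20, and those of the flanks lie between 64.7 and 66.5%.

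Bodies of genes over FPKM 20 ran from 0.164 to 91.8%. Of the genes over FPKM 20, Zfp503, a zinc-finger corepressor, had the lowest, with ends at 2.34 and 12%. Marcks, an actin-binding substrate of protein kinase C, stood at 0.630% over its body at FPKM 289, although its far end was at 84.5%. Irf2bp2, a transcriptional corepressor, had 1.35%, Tgif1, a homeobox repressor of TGF-beta signalling, 3.82% and Aldoa, the glycolytic aldolase, 5.58%. The loci of these 5 genes were 5141 to 9328 bp long, so the outer 2 kb removed at each end were a large part of them. At the other extreme the zinc-finger gene Zfp146 had a body at 91.8% and a start at 0.0667%, Cggbp1, a protein that binds CGG repeats, had 91.4% and 0.00412%, and Snrpb2, a spliceosomal protein, had 90.9% and 2.43%. Tmem5 and Bet1, a membrane protein and a SNARE of vesicle transport, stood at 91.6 and 90.8% over their bodies and at 0.166 and 1.28% at their starts.

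The number of CpGs at the start went with both quantities. The median start window held 16 CpGs at FPKM 0 to 0.1, 40 at 0.1 to 1, 58 at 1 to 5, 67 at 5 to 20 and 68 over 20. Across 17597 genes the rank correlation between CpG number and FPKM was 0.52. Expression class was therefore compared within bands of CpG number.

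With 60 CpGs or more, the start was unmethylated in nearly all genes at every level of expression. The share was 93.9% of 544 genes at FPKM 0 to 0.1 (91.6 to 95.6), 97.5% of 686 at 0.1 to 1, 98.6% of 1398 at 1 to 5, 99.7% of 2793 at 5 to 20 and 99.6% of 2099 over 20 (99.2 to 99.8). With 20 to 59 CpGs it differed most, at 36.3, 53.9, 78.9, 89.0 and 91.6% from the lowest to the highest class. With under 20 CpGs few starts were unmethylated even in abundant genes: 0.943% of 2651 at FPKM 0 to 0.1 (0.640 to 1.39) and 10.5% of 191 over FPKM 20 (6.88 to 15.6). The level there was still lower in expressed genes, with a median of 67.2% in the lowest class and 38.1% in the highest.

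**Figure D3:**
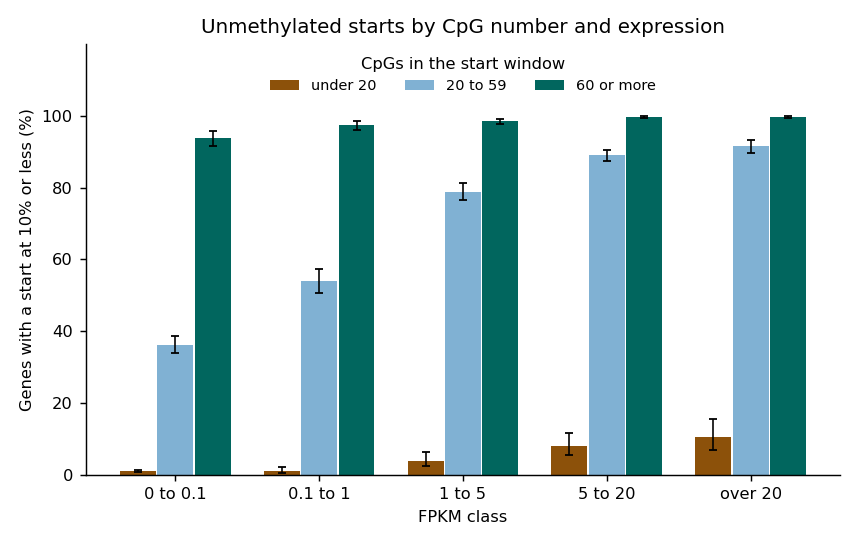
Share of genes (%) whose start stood at 10% or less, by FPKM class and by the number of CpGs within 500 bp of the start; error bars are Wilson 95% intervals over genes. The bars for 60 CpGs or more stand between 93.9 and 99.7% in every class, those for 20 to 59 go from 36.3 to 91.6%, and those for under 20 stay at or below 10.5%.

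Some abundant transcripts came from starts with few CpGs and intermediate methylation. Of 3317 genes over FPKM 20 with a strand, 191 had under 20 CpGs at the start. Of these, 20 starts stood at 10% or less, 119 between 10 and 60% and 52 at 60% or more. Col1a1, the collagen I alpha 1 chain and the most abundant member at FPKM 6473, had 26 CpGs and stood at 7.24% at its start (locus chr11:94797584-94813170), 52.1% at its far end and 31.5% over its body. Sparc, a collagen-binding matrix protein at FPKM 4489, had 17 CpGs at 27.5%. Col1a2, the partner chain of Col1a1 at FPKM 3957, had 36 CpGs at 2.14%. Col3a1, the collagen III chain at FPKM 3000, had 7 CpGs at 18.7%. Lgals1, a secreted galactose-binding lectin at FPKM 2111, had 22 CpGs at 0.659%. Postn, a matrix adaptor, stood at 25.3% with 10 CpGs, and Acta2, smooth muscle actin, at 27.7% with 18.

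The ends of the 25 measured matrix and secreted fibroblast genes covered a wide range. All 25 were over FPKM 5 and 14 had an unmethylated end, against 91.2% of the 7976 genes over FPKM 5. Their less methylated end had a median of 5.31%, against 0.458% over all genes in that range. It ran from 0.175% in Fn1, the fibronectin gene, to 75.1% in Mmp3. Their start windows held a median of 26 CpGs, against 68 over all genes over FPKM 5. Of the 12 fibroblast markers 7 had an unmethylated end, from 0.0410% in Vim, the mesenchymal intermediate filament, to 32.4% in Lum, a small collagen-binding proteoglycan. The transcription factors of dermal mesenchyme lay lower, with 23 of 27 unmethylated at an end and a median of 1.69%. Their less methylated ends held more CpGs, with a median of 55 against 26 in the matrix and secreted genes. Twist1, a factor of mesenchymal identity, stood at 0.447 and 5.58% at its ends with FPKM 94.0, and Prrx1, a limb and dermal homeobox factor, at 1.69% at its start. Bodies of these factors were poorly methylated for expressed genes, with a median of 56.1% over 19 bodies and 9.35% in Hic1, a transcriptional repressor.

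Most genes kept on in nearly all cells had an unmethylated end, as did 91.2% of all genes over FPKM 5. Of 79 measured ribosomal protein genes 76 had an unmethylated end, with a median of 0.303% at the less methylated end. The other 3 were the paralogs Rpl39l (54.6%, FPKM 24.1), Rpl10l (78.2%, FPKM 0) and Rpl3l (33.5%, FPKM 0). Of 14 housekeeping genes 13 had an unmethylated end, and Ywhaz, described below, had none. Reads of ribosomal protein genes can match near-identical copies elsewhere, and no source used here says how the authors assigned them.

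Of 15 genes that write, read or erase methylation 12 had an unmethylated end, against 64.5% of all measured genes. Dnmt3a, a de novo methyltransferase, stood at 0.0682% with FPKM 11.9, Uhrf1, which guides maintenance methylation, at 2.77% with FPKM 5.48, and Tet2, which oxidises methylcytosine, at 0.0583% with FPKM 1.70. Tet1, of the same family as Tet2, had both ends methylated, at 85.5 and 82.0%, and an FPKM of 0.789. Zbtb38, a reader of methylated CpGs, had 80.1 and 81.5% at FPKM 4.90, and Dnmt3l, a germline cofactor of the de novo enzymes, 54.4% at its less methylated end. Dnmt1, the maintenance methyltransferase, had a failed expression estimate and entered no class. Of the bZIP factors that the series studied, Atf4 stood at 0.166% at its start with FPKM 208, and Cebpb, a gene of 1504 bp, at 0.110 and 1.36% at its ends with FPKM 33.4.

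Macrophage markers that were expressed in the culture mostly had ends of intermediate methylation. The 12 macrophage markers over FPKM 5 had a median of 52.0% at the less methylated end (range 6.59 to 78.4), and 10 of them stood at 20% or more, against 507 of all 7976 genes over FPKM 5 (6.36%). Lyz2, the lysozyme of macrophages at FPKM 880, stood at 27.6% at its start and 70.1% at its far end. C1qb, a chain of the first complement component at FPKM 113, had 43.0 and 79.9%, Csf1r, the receptor that sustains macrophages, 66.2 and 75.2% at FPKM 20.5, and Cd68, a lysosomal glycoprotein, 39.3 and 64.0% at FPKM 86.4. Cd14, the lipopolysaccharide co-receptor, and C1qa were the 2 with an end at 10% or less, at 9.11 and 6.59%. In C1qa this was the far end, and its start stood at 42.9%. The start windows of the 12 genes held few CpGs, with a median of 12.5, against 68 over all genes over FPKM 5. Over all genes with under 20 CpGs at the start, the start had a median of 55.0% at FPKM 5 to 20 and 38.1% over 20. Intermediate levels were thus not particular to macrophage markers. The part that macrophages in the culture play in the values of the 12 genes was not tested.

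Muscle and skin markers over FPKM 5 were also mostly above 20% at both ends. The 7 muscle markers over FPKM 5 had a median of 44.2% (range 4.17 to 61.5) and 5 stood at 20% or more. Myog, a muscle differentiation factor, had 71.0% at its start with FPKM 13.8, whereas Myod1, the factor that commits cells to muscle, had 8.12% with FPKM 3.50. Krt14 and Krt17, keratins of epidermal cells, were the 2 keratinocyte markers over FPKM 5, at 46.1 and 72.5%. Of 8 lymphocyte markers 0 had an unmethylated end, and 6 of them were at FPKM 0.1 or less, as were 28.8% of all measured genes. An unmethylated end was present in 64.5% of all measured genes and 21.8% of silent ones. Of the endothelial markers only Kdr, the VEGF receptor, had an unmethylated end among 7 measured, at 0.915% with FPKM 0.847. Of 10 melanocyte and Schwann markers 3 had one, among them Mitf, the regulator of melanocytes, at 0.272% with FPKM 3.80, and of 7 adipocyte markers 3, among them Pparg, the regulator of fat cell formation, at 0.982% with FPKM 2.24.

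**Figure D4:**
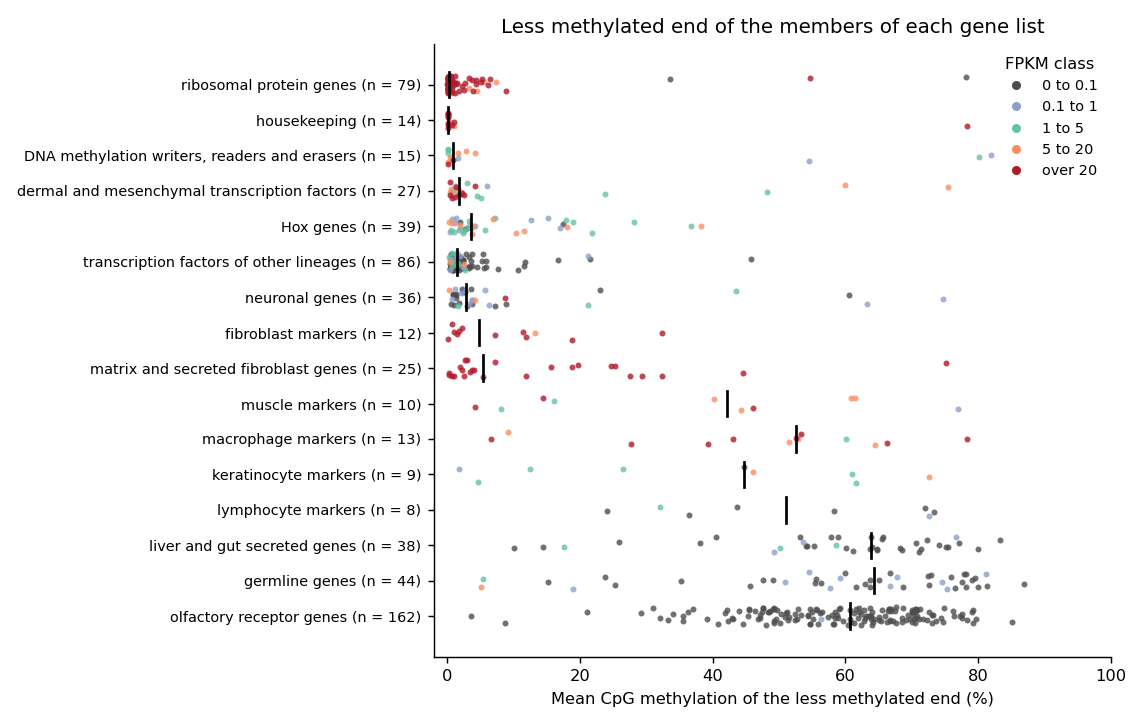
Methylation (%) of the less methylated end of every measured member of 16 gene lists; each point is a gene, coloured by FPKM class, and the black bar is the list's median. Medians run from 0.0973% for housekeeping and 0.303% for ribosomal protein genes to 52.6% for macrophage markers and 64.4% for germline genes.

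Both ends were methylated in 838 genes (4.52% of those measured), and this was rarer the higher the expression. The share was 10.5% at FPKM 0 to 0.1, 5.76% at 0.1 to 1, 2.16% at 1 to 5, 1.34% at 5 to 20 and 0.719% over 20. In numbers, 62 genes at FPKM 5 to 20 and 24 over 20 made up 86 exceptions, expressed with both ends methylated. The limit of 75% cut through a continuous range, since 41 of the genes over FPKM 5 had their less methylated end between 75 and 80% and 31 had it between 70 and 75%. The 81 of these genes with a strand held a median of 12 CpGs at the start. Of the 86 genes, 85 stood over FPKM 1 and 61 over FPKM 5 in the library of thapsigargin-treated cells as well. The shares of all genes over FPKM 5 that did so are not given here, so these counts single out nothing about the 86.

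Most of these exceptions had an unmethylated start elsewhere. Of the 86 genes, 50 had a transcript start annotated in GENCODE vM1 at which methylation was 10% or less, 29 of them upstream of the locus start, at a median of 14.7 kb, and 21 downstream of it, at a median of 6.04 kb. Among genes at FPKM 0 to 0.1 with both ends methylated such a start existed in 10 of 440 (2.27%), against 50 of 81 of the expressed genes with annotated starts (61.7%). A 1-kb window at 10% or less inside the locus existed in 27 of 78 expressed genes long enough for a search (34.6%, Wilson 25 to 45.7) and in 13 of 473 silent ones (2.75%, 1.61 to 4.65). The difference was present in both bands of locus length: over 20 kb the shares were 45.7 and 5.0%, and between 1.5 and 20 kb they were 18.8 and 1.6%.

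Ywhaz, which encodes an adaptor that binds phosphorylated proteins, had the least methylated start of this kind. Its locus (chr15:36700016-36726684, minus strand) stood at 78.3% at its start and 82.6% at its far end with FPKM 82.4, while its body was at 24.8% and an annotated start 4.51 kb inside the locus was at 0.0164%. Bri3, a membrane protein of lysosomes at FPKM 52.0, had ends at 84.2 and 91.8% and an inner start at 0.0699%. Sri, the calcium-binding protein sorcin, and Tpst1, which sulfates tyrosines of secreted proteins, had inner starts at 0.300 and 2.55%, and Palld, an actin-bundling protein, had 1 at 0.822%, 312 kb into its locus. Spnb2, a spectrin of the membrane skeleton, and Svil, which links actin to the membrane, had theirs upstream, by 48.4 and 125 kb, at 0.0972 and 0.196%. Elof1, a transcription elongation factor with a locus of 1181 bp, had an unmethylated start 2.98 kb upstream, at 0.121%.

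For 33 of the 86 genes neither an annotated start nor an inner window was found unmethylated. In 5 of the 33 no annotated start could be measured, in 7 no inner window, and in 2 neither. Of the 33, 23 were protein-coding and 10 were pseudogenes or not annotated as coding. Pseudogenes such as Gm6548 (FPKM 75.4, ends at 80.8 and 85.3%) resemble other genes, and reads of a parent gene cannot be told from their own here. Cd74, the invariant chain of MHC class II, was the most abundant at FPKM 143, with 78.4 and 81.0% at its ends and 77.1% over its body. In thapsigargin-treated cells it stood at FPKM 5.61. Nt5dc2, a nucleotidase-like protein at FPKM 46.2, had 75.4 and 89.6%, and Tnnc1, the troponin C of slow muscle and heart at FPKM 37.3, 78.6 and 78.9%. Fat1, a giant cadherin at FPKM 36.1, had 86.9 and 86.2% at the ends of a locus of 102050 bp, within which the lowest 1-kb window was at 36.6%. Mmp3, whose upstream stretch is printed above, had 75.1 and 79.6% with 5 CpGs at its start and no window under 42.0%. Ccl8, a chemokine, and Il1rn, the antagonist of the interleukin-1 receptor, were in this group at FPKM 13.0 and 6.23.

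The opposite exceptions, silent genes with an unmethylated end, numbered 1168 of 5346 genes at FPKM 0 to 0.1 (21.8%), and 526 of them were listed at 0. The limit again cut a continuous range, with 42 genes at 9 to 10% and 34 at 10 to 11%. Of the 1102 with a strand, the start was unmethylated in 1055 and the far end alone in 47. They were richer in CpGs than the other silent genes: 557 (47.7%) had 60 or more CpGs at their less methylated end, against 32 (0.766%) of the 4178 without an unmethylated end. An end of another gene over FPKM 1 lay within 1 kb of the unmethylated end in 167 (14.3%), against 96 (2.30%) of the others. Their bodies had a median of 68.2%, close to the 70.3% of the other silent genes and below the medians of the classes over FPKM 1.

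**Figure D5:**
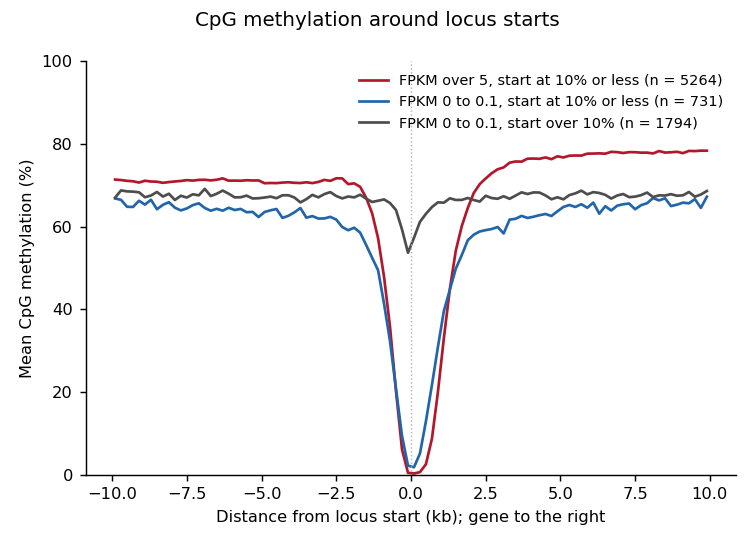
Mean CpG methylation (%) in 200-bp bins around the locus start of genes with loci of 10 kb or more: over FPKM 5 with an unmethylated start, at FPKM 0 to 0.1 with an unmethylated start, and at FPKM 0 to 0.1 with a start over 10%. Both unmethylated groups reach values under 2% beside the start, but from 5 to 10 kb inside the gene the expressed group stands at 77.8% and the silent ones at 65.3 and 67.7%.

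In the plot of silent and expressed starts both unmethylated groups were chosen for a start at 10% or less, so only the values away from the start describe them further. The lowest bin stood at 1.82% in 731 silent genes with an unmethylated start and at 0.31% in 5264 genes over FPKM 5 with one. From 1 to 2 kb outside the start the silent group was lower, at 55.1% against 65.5%. From 5 to 10 kb inside, the expressed group was at 77.8% and the silent group at 65.3%, close to the 67.7% of 1794 silent genes with a start over 10%.

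Developmental transcription factors were prominent among the silent genes with unmethylated ends. Of 86 measured factors of other lineages 79 had an unmethylated end, and of the 68 that were silent 62 did, against 21.8% of all silent genes. The less methylated ends of the list held a median of 67 CpGs, however. Of all silent genes with 60 or more CpGs at the start, 93.9% had an unmethylated start, and of those with 20 to 59 CpGs 36.3% did. The 68 silent factors were not divided by CpG number, so their share cannot be set against either band alone. At 25 of the 86 factors both ends were unmethylated, where 1.29% of all measured genes had that. Bodies of the listed factors were low as well, with a median of 25.3% over 47 bodies, against 69.2% for all genes at FPKM 0 to 0.1. The 47 were not matched for locus length and included expressed members, such as Emx2 at FPKM 8.22. At short loci, such as that of Emx2 with 6668 bp, the outer 2 kb removed at each end were a large part. The Hox genes, which set position along the body axis, gave 26 of 39 with an unmethylated end, near the 64.5% of all measured genes. Only 4 of them were silent, 3 of which had an unmethylated end, and 10 were over FPKM 5, led by Hoxd8 at FPKM 19.9 and 0.242%. Neuronal genes gave 30 of 36 unmethylated, 17 of the 19 silent ones included. Gria2, a glutamate receptor listed at 0, had a start at 0.966%, but a far end at 78.1% and a body at 70.8%, and the median of the 35 neuronal bodies was 68.8%.

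Both ends were unmethylated in 68 silent genes, 42 of them listed at 0, and without a minimum locus length in 162. Their loci were short, with a median of 4.26 kb against 21.3 kb for all 1168. Nkx6-1, a homeobox factor of pancreas and spinal cord (chr5:102088216-102093730), stood at 0.593 and 4.80% at its ends and 7.09% over its body, while its flanks were at 60.8%. Skor1, a corepressor of the nervous system, had 0.907 and 9.44% with a body at 2.40%, and Barhl2, a homeobox factor of retina and spinal cord, 0.983 and 7.09% with a body at 12.1%. Tlx3 had 1.89 and 1.84%. Foxe1, a forkhead factor of thyroid, Lbx1, a homeobox factor of migrating muscle precursors, Vax1, a homeobox factor of the ventral eye, and Hmx3, of the inner ear, all had both ends under 5%. Evx2, next to the Hoxd cluster, had 1.60 and 5.43% within flanks at 22.3%. Otud7a, a deubiquitinase with a locus of 314256 bp, was an exception in length, with ends at 0.741 and 5.62% and a body at 68.3%.

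Germline genes were mostly silent, and few had an unmethylated end. Of 44 measured, 2 had one, against 64.5% of all measured genes and 21.8% of silent ones, and 13 had both ends methylated, against 4.52% of all. Of the 32 silent germline genes 0 had an unmethylated end. The less methylated ends of the list held a median of 14.5 CpGs. Of all silent genes with under 20 CpGs at the start, 0.943% had an unmethylated start. The 2 exceptions were expressed, Syce2, a synaptonemal complex protein, at FPKM 7.33 with a start at 5.03%, and Tdrkh, a tudor protein, at FPKM 2.55 with 5.40%. Of all 7520 starts with 60 or more CpGs only 8 stood at 60% or more. They were Dazl (85.3%), Ddx4 (75.3%), Mael (76.5%), Sycp1 (67.8%), D1Pas1 (82.5%), Hsf5 (83.0%), 1700067K01Rik (64.9%) and 4933416C03Rik (89.2%), all at or below FPKM 0.343. Ddx4 is an RNA helicase of germ cells, Mael acts in silencing transposons and Sycp1 joins paired meiotic chromosomes, and these 3 and Dazl were in the germline list.

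CpG-dense starts with intermediate methylation in expressed genes were few. Of the starts with 60 or more CpGs, 15 belonged to genes over FPKM 5 and stood over 10%. The highest was Sgce, at 41.5% with FPKM 46.2, followed by Plagl1 at 37.2% with FPKM 53.7. Next came Gm7120 at 25.2% with FPKM 15.8 and Igf2r at 23.5% with FPKM 47.9. Dzip1 stood at 22.5% with FPKM 5.93 and Cdkn1c at 21.1% with FPKM 109. Sgce, Plagl1, Igf2r and Cdkn1c are imprinted genes, of which only 1 parental copy is normally expressed. They were picked out after their values were seen, and the parental copies were not separated in these data.

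Liver and gut genes and olfactory and vomeronasal receptor genes rarely had an unmethylated end, against 64.5% of all measured genes and 21.8% of silent ones. Both ends were methylated in 4.52% of all measured genes and 10.5% of silent ones. None of 38 liver and gut genes had an unmethylated end, and 32 were at FPKM 0.1 or less, with a median of 63.8% at the less methylated end and both ends methylated in 6. Apoa1, an apolipoprotein, came nearest at 10.1%, and Alb stood at 65.6 and 79.5%. Of 1109 olfactory receptor genes 162 could be measured at both ends, 2 of which had an unmethylated end, Olfr1033 (3.57%) and Olfr94 (8.67%), while 11 had both ends methylated. Of 45 measured vomeronasal receptor genes 0 had an unmethylated end and 0 had both ends methylated. The less methylated ends of the liver and gut, olfactory and vomeronasal lists held medians of 11, 6 and 4 CpGs. Of all silent genes with under 20 CpGs at the start, 0.943% had an unmethylated start. Of 16 pluripotency genes 6 had an unmethylated end, among them Klf4, a factor that skin cells also use, at 0.0215% with FPKM 17.8, while Nanog and Pou5f1, the core factors of embryonic stem cells, had 35.6 and 55.5% at their less methylated end.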

How the data were processed

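RNA was measured in 1 library of untreated cells, and DNA methylation in 2 bisulfite libraries. Expression values, deposited by the authors, were FPKM, each with 2 bounds and a status flag. Methylation was a percent per CpG cytosine, deposited by the authors as 1 value pooled over both bisulfite libraries, without coverage. Per the submitters' processing notes, the RNA reads went through CASAVA 1.8.2 and Bowtie, and the bisulfite reads through CASAVA 1.8 and Novoalign, on mm9. For FPKM and for the methylation calls, the program is not given in the sources used here. Of the autosomal rows marked CpG, 98.6% lay at a CG of the mm9 reference. The 83035 rows marked heterozygous were left out.

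Of 21960 members, 6 had a failed estimate. Of the remaining 21954, 2069 loci were under 1 kb and 1334 had under 5 cytosines at an end, which left 18551. Bodies needed a locus of 5 kb and 10 cytosines, flanks 100 cytosines. No statistical test was made. Shares carry Wilson 95% intervals, which cover the number of genes only. Windows and means were checked on simulated data. Strands and further starts came from GENCODE vM1, in which 98.0% of the genes with a strand had a transcript start within 500 bp of the locus start. Python 3.11.15, NumPy 2.4.6, pandas 2.3.3, SciPy 1.17.1 and matplotlib 3.10.9 were used.

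Named genes were the 12 most abundant over FPKM 20 with both ends methylated, the 12 silent genes with both ends unmethylated and the most CpG cytosines, the 5 most abundant genes, the 5 lowest and 5 highest bodies over FPKM 20, the leading members of each gene list, and Dnmt1, Uhrf1, Tet2, Cebpb, Atf4 and Actb, without numbered models and, outside their own list, without ribosomal protein genes; others named were chosen after their values were seen. The members and gene lists were chosen with earlier results of these data known. Alternatives covered the windows, cytosine minimum, limits, gene filters, body definition and the library that set the classes; leaving out genes whose FPKM bounds cross a class limit was added after seeing the data. The thapsigargin RNA library served for side values, and peak lists were not used here.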

Additional observations from a re-analysis of the deposited data

How the results depend on the processing

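No paired analysis was possible because there was 1 RNA library and the bisulfite values were pooled, and for the same reason no replicate could be left out. The share of genes with an unmethylated end was higher in each FPKM class than in the class below in 14 of 14 settings, and the body median was highest at FPKM 5 to 20 in 9 of 9. The sizes moved. The share of silent genes with an unmethylated end was 27.9% with windows of 250 bp, 14.5% with 1000 bp, 20.4% with a minimum of 1 cytosine, 31.1% with 20, 27.2% with a limit of 20%, 23.3% in coding genes, 18.6% without a minimum length, 19% without genes near another locus, 36.0% without entries at 0, 24.4% with classes from the thapsigargin library and 20.5% without genes whose FPKM bounds cross a class limit. Over FPKM 20 that share was 94.3% with 250 bp, 79.0% with 1000 bp, 93.8% with 20 cytosines, 94.5% with a limit of 20% and 90.9% without genes near another locus. The body median over FPKM 20 was 81.5% with CpGs valued on both strands, 79.6% without genes near another locus, 80.7% with 5 kb taken off each end, 79.5% in introns and 79.6% with classes from the thapsigargin library. The silent body median was 70.7% with CpGs valued on both strands, 68.8% in coding genes, 69.9% without entries at 0 and 68.5% in introns. The 86 expressed genes with both ends methylated became 42 with a minimum of 20 cytosines and 194 with a limit of 60%. The 1168 silent genes with an unmethylated end became 686 with a minimum of 20 cytosines, 723 without genes near another locus and 642 without entries at 0. These 3 alternatives remove genes from the start. The 68 silent genes with both ends unmethylated became 162 without a minimum length, 114 with a limit of 20% and 26 without entries at 0. The cause of the other moves was not tested. Of 201 further values 34 moved, and of 118 values of named genes 5 did: with 250 bp the less methylated end of Elof1, Sri and Tpst1 was 69.6, 74.7 and 74.2%, and with 1000 bp that of Cd74 and Nt5dc2 was 74.0 and 74.8%.

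The percentages carry no coverage, so a window at 0% cannot be given an upper limit, and FPKM of 0 to 0.1 rests on few fragments: the authors' bounds lay a median of 100% of the value away there. Of the genes at FPKM 0.1 to 1, 32.5% had bounds that cross a class limit.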
